A study of Mus musculus with 11 samples.

Results

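The 8 genes described here carry out the uptake, transport, storage and sensing of iron. They are Tfrc, Steap3, Slc11a2, Slc25a37, Fth1, Slc40a1, Aco1 and Ireb2, and they were taken from a fixed list of names out of 22342 protein-coding genes with an annotated start site. The rule uses no measured value, but the list was drawn up with earlier results of these data known. Each gene was followed over its body and 10 kb to either side on mm9, which together held 942 of the 5309781 windows of 500 bp that tile the genome.

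Erythroid cells take up more iron than most cells because hemoglobin needs it. Transferrin-bound iron enters through the transferrin receptor, encoded by Tfrc. In the endosome, the reductase Steap3 converts the iron to its ferrous form and the transporter Slc11a2, also called DMT1, moves it to the cytosol. Mitoferrin, encoded by Slc25a37, imports it into mitochondria for heme synthesis, ferritin (whose heavy chain is Fth1) stores it, and ferroportin (Slc40a1) exports it. Aco1 and Ireb2 encode the iron regulatory proteins, which bind RNA stem-loops in transcripts such as those of Tfrc and ferritin when iron is scarce. PU.1 belongs to the Ets family of transcription factors and binds DNA at purine-rich words around GGAA.

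The study mapped PU.1 by ChIP-Seq in 2 kinds of mouse erythroid cell, leukemic and normal, to find the gene network of PU.1 in immature cells. MEL cells are an erythroleukemia line, here a clone that stably carries a fusion of GATA-1 to ER, grown with puromycin. ES-EP are erythroid progenitors derived from ES cells and kept in medium with Epogen, hIGF-1, dexamethasone and murine SCF. For each cell type, PU.1 ChIP came from 2 chromatin preparations, and its libraries are labelled A1, A2, B1 and B2. The labels do not say what letter and digit mean. Here the letter was taken as the preparation and the digit as 1 of its 2 libraries. Non-immunoprecipitated input DNA gave 1 library for MEL cells and 2 for ES-EP. No group is labelled as treated with estradiol or an inducer of differentiation, and no sample without PU.1 or with a control antibody was analysed here, so input is the background throughout. The MEL clone is a single clone, and results in it may not extend to other MEL cells. In input, the exons of Gata1 held 39 MEL reads but 2 ES-EP reads, a depth-scaled ratio of 34.1 against 1.56 for chromosome X as a whole.

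MEL preparations A and B held 5697937 and 6987141 reads and MEL input 4278560. For ES-EP these were 6284725, 7095855 and 7488885. Levels are given as RPM, reads per 1000000 reads of the library or preparation. The preparations differed in how many of their reads lay at start sites. Over all 22342 start-site windows the depth-scaled level of preparation B was 1.70 times that of A in MEL cells and 0.573 times that of A in ES-EP. Over the 8 iron gene start sites these ratios were 2.73 and 0.554. The ES-EP input libraries differed as well, with 2.54% of reads of library 1 and 3.44% of library 2 in start-site windows, against 1.29% in MEL input. Results at start sites therefore rest on groups whose own preparations and inputs differ, and for up to 4 occupied windows per gene and for the start sites, the calls lost or gained when a preparation is left out are given gene by gene.

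Sequences under 7 of the 18 sites described below are given first, on the plus strand of mm9. They were cut around the highest point of the summed ChIP reads, or, for the Tfrc promoter, just before the start of transcription. In the 3 sequences that hold it, capitals mark GAGGAAGT or its reverse complement, the word that PU.1 is best known to bind. Of the 18 sites, only these have the word within 250 bp of their highest point. The Steap3 and Slc25a37 intron sites among them were called in ES-EP alone, and not with its preparation A left out. Some sites called in both cell types are not printed. An example is the joined site at the Fth1 start, called in ES-EP only through its window 558 bp from the start. In the other 4 sequences, which lack GAGGAAGT, capitals mark the Ets core GGAA or its complement.
Aco1, 8.1 kb upstream, chr4:40081855-40082154: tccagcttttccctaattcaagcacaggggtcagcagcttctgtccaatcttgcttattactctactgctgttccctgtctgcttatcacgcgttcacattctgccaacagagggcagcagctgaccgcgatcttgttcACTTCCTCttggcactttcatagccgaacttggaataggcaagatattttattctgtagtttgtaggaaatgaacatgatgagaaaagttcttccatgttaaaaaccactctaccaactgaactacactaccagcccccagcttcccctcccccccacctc
Slc25a37, 3.1 kb upstream, chr14:69906098-69906397: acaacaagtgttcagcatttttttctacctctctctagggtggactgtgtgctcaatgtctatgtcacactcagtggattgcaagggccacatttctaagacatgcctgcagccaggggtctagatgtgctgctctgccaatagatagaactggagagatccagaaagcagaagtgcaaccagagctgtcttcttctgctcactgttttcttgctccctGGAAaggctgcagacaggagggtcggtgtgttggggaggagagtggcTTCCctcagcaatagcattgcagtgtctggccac
Tfrc, 25.5 kb from the start and past the end of the gene, chr16:32634328-32634627: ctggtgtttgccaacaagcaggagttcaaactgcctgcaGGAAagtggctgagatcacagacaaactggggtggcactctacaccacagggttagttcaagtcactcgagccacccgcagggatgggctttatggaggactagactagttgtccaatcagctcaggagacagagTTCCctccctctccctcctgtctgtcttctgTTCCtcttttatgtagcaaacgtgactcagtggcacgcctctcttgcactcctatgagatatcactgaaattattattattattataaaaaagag
Tfrc promoter, the 150 bases before the start, chr16:32608856-32609005: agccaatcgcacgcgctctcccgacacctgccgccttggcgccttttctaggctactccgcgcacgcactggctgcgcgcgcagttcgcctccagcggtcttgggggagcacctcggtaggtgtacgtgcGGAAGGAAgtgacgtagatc
Ireb2, 30 bases at the start of the first exon, in its 5′ UTR, chr9:54711565-54711594: actgcTTCCTTCCtcctTTCCcctgcccgt
Steap3 intron, 21.4 kb from the start, chr1:122147822-122147971: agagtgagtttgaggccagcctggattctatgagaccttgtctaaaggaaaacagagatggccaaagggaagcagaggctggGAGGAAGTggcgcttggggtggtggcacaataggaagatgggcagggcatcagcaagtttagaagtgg
Slc25a37 intron, 17.7 kb from the start, chr14:69885427-69885576: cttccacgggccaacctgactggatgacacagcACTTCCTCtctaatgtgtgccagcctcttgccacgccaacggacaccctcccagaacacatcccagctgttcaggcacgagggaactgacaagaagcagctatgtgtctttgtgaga
In the Aco1 sequence the word begins 11 bases before the highest point of the reads, and in the Steap3 intron 7 bases after it. The Tfrc promoter holds the core 2 times in direct succession, beginning 20 and 16 bases before the start of transcription, and the Ireb2 stretch holds it 3 times on the minus strand. Of GATA words only AGATAA was searched, and it is in none of the 7 sequences. Related GATA words were not searched, so the sequences were not shown to lack them.

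PU.1 was found at windows of 7 of the 8 genes in at least 1 cell type, and Slc40a1 had none. The share of all protein-coding genes with a call in either cell type was not computed. The shares for each cell type given below were not matched for gene length. A window was called occupied when its summed ChIP reads exceeded the reads expected from depth-scaled input by a one-sided Poisson test, adjusted over all windows (below 0.05), and each preparation alone also had p below 0.05. This test is over reads and not over replicates. In MEL cells 14 of the 942 windows were occupied, or 1.49%, against 0.64% of all windows in or within 10 kb of protein-coding genes and 0.397% of the genome's windows. In ES-EP 17 were occupied, or 1.80%, against 0.451% and 0.281%. Both cell types shared 8 windows, which is 57.1% of the 14 and 47.1% of the 17, and 0.849% of the 942 against 0.225% of windows at protein-coding genes. At least 1 occupied window was present at 6 of 8 genes in each cell type, against 51.5% of all protein-coding genes in MEL cells and 41.1% in ES-EP. Joined where they touch, the 23 windows made 18 sites, of which 6 lay within 1 kb of an annotated start of the gene and 12 farther away.

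**Figure D1:**
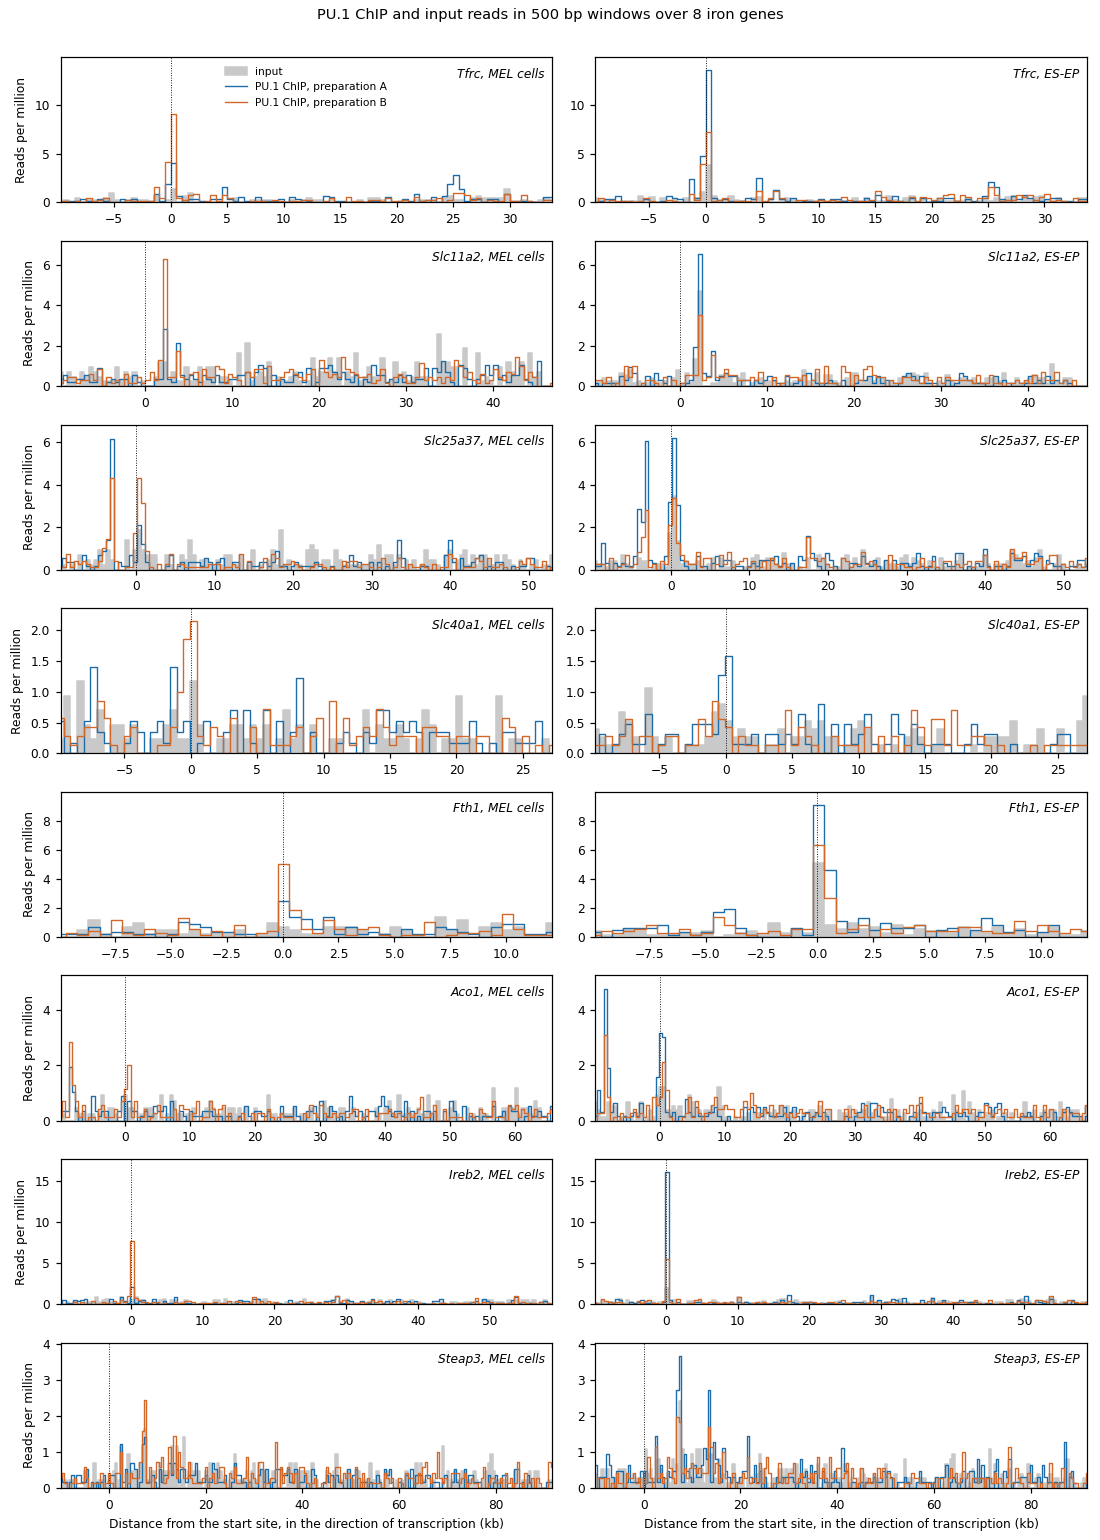
PU.1 ChIP reads as RPM in 500 bp windows over the 8 genes and 10 kb to either side, with MEL cells on the left and ES-EP on the right; lines are preparations A and B, gray is input, and the dotted line is the start site. The tallest windows lie at the starts of Tfrc and Ireb2 (up to 13.5 and 16.1 RPM in ES-EP preparation A), and Slc25a37 and Aco1 have peaks upstream of the gene in both cell types.

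The start-site windows, 500 bp centered on the most upstream coding start, gave 3 occupied genes in MEL cells (Tfrc, Fth1 and Ireb2) and 2 in ES-EP (Tfrc and Ireb2). Over all 22342 start sites the occupied share was 19.4% for MEL cells and 12.5% for ES-EP, with 7.34% occupied in both. The median ratio of ChIP reads to expected reads over the 8 genes was 3.22 in MEL cells and 1.43 in ES-EP, beside 1.32 and 1.04 over all start sites. It rested on the preparations: in MEL cells it was 1.77 without B (0.932 over all start sites) and 4.25 without A (1.53). In ES-EP it was 0.982 without A (0.923) and 2.0 without B (1.09), and 2.24 without input library 2 (1.12). With the background from 10 kb and the genome mean it was 4.92 in MEL cells (2.19) and 7.0 in ES-EP (2.24). Input itself was high at these windows. The 8 windows held 21 MEL and 106 ES-EP input reads, which is 3.26 and 9.39 times the genome mean, beside 3.06 and 7.48 times over all start sites.

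**Figure D2:**
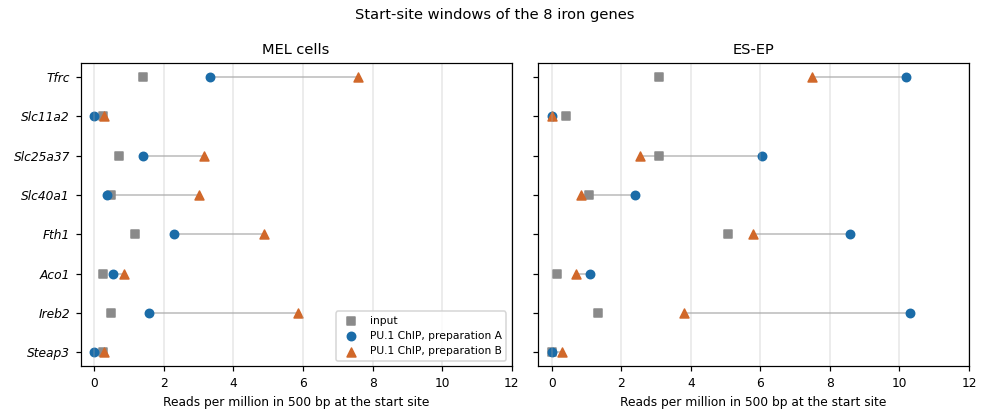
RPM in the start-site window of each gene for preparations A (circles) and B (triangles) and for input (squares), in MEL cells and ES-EP. Preparation B is the higher one at every gene in MEL cells, and preparation A at 6 genes in ES-EP.

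Among the uptake genes, Tfrc had the most occupied windows, 5 of 88 in MEL cells and 6 of 88 in ES-EP. Its start-site window (chr16:32608756-32609255) held 7, 12, 19 and 34 reads in MEL libraries A1, A2, B1 and B2, against 6 in input. In ES-EP the libraries held 22, 42, 11 and 42 reads, against 23 in both inputs together. Depth-scaled, every MEL and ES-EP preparation was above its own input. ChIP exceeded input 4.05-fold in MEL cells (95% confidence interval 1.77 to 11.4, exact, counting error only) and 2.85-fold in ES-EP (1.81 to 4.67), with Poisson adjusted p of 8.09e-21 and 8.69e-21. The occupied windows on both sides of the start joined into 1 site, whose highest point lay 33 bp upstream of the start, beside the repeated core printed above.

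Tfrc also had sites away from its start. In the window at 4.75 kb, within an intron, 9 and 5 reads lay in MEL preparations A and B with none in input, and 16 and 8 in ES-EP with 4 in input. The ratio to expected reads was 4.72 in MEL cells and 3.36 in ES-EP, although only 70.8% of the 27-base words around this site occur once in the genome. A further window lay 25.2 kb from the start, with its highest point 1598 bp past the end of the gene and its center 10478 bp from the nearest coding start, that of Tnk2. It held 16 and 7 reads in MEL cells with 1 in input, and 13 and 11 in ES-EP with 1 in input. Both cell types were occupied there, with ratios to expected of 5.17 and 5.84. Without MEL preparation A the MEL calls at 4.75 and 25.2 kb were lost (ratios 3.06 and 2.86), and without ES-EP preparation A or input library 2 the ES-EP call at 4.75 kb was lost (2.11 and 2.19). The other 3 windows of Tfrc, at 6.25, 15.2 and 25.7 kb, held 13 to 16 reads in the cell type in which they were called. Over the whole gene and its flanks, ChIP exceeded input 1.5-fold to 1.88-fold in the 4 preparations, where the median gene had 0.939 to 1.05.

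Steap3, the endosomal reductase, was not occupied at its most upstream start, where both cell types held 0 reads in preparation A and 2 in preparation B. That window is partly repetitive, with 78.2% of its 27-base words found once. In ES-EP 3 of its 204 windows were occupied and in MEL cells none. The window at 7.03 kb, beside an internal pair of annotated starts, held 17 and 14 reads in ES-EP against 5 in input, a ratio to expected of 3.47 (adjusted p = 4.19e-06). In MEL cells it held 7 and 11 reads, against 14.8 expected from input, and the ratio was 1.21. Windows of 500 bp centered on those internal starts were occupied in neither cell type, with ES-EP ratios of 1.34 and 1.52 and 18 input reads each. Around the highest point of this site, 500 bp held 32 and 20 ES-EP reads against 15 in input. A window farther into the intron, centered 13531 bp from the start, had a ratio of 2.32 in ES-EP and 1.75 in MEL cells. At 21.5 kb, the intron that holds the GAGGAAGT printed above, 9 and 6 reads lay in ES-EP and 4 and 3 in MEL cells. The ES-EP calls rested on preparation A, and without it no Steap3 window was occupied (ratios 2.96, 1.81 and 3.17 at 7.03, 13.5 and 21.5 kb). With the background from 10 kb and the genome mean, the window at 7.03 kb was also called in MEL cells (2.89).

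Slc11a2, the endosomal iron transporter, showed the opposite calls, with 2 of 114 windows occupied in MEL cells and none in ES-EP. Its most upstream start held 0 and 2 reads in MEL cells and none in ES-EP. Instead, reads gathered at 2.25 kb, by a pair of downstream starts and where Gm5475 also overlaps, so that neither gene can be assigned the reads. In MEL cells preparation A held 16 reads there and preparation B 44, against 5 in input, 4.05-fold over input (1.64 to 12.9). Windows centered on those downstream starts were not occupied in MEL cells, with ratios to expected of 2.63 and 2.5. Preparation A held 10 and 9 reads in them (exact Poisson p = 0.137 and 0.228). In ES-EP the window at 2.25 kb held 41 and 25 reads, which exceeds MEL cells in preparation A, but input held 35, and the ratio was 1.06 (0.69 to 1.64). Input stood at 1.17 RPM in MEL cells against 4.67 in ES-EP. The ChIP reads themselves gave a log2 difference of −0.20, MEL minus ES-EP (limma, 95% interval −1.47 to 1.08). Of those 35 input reads, 5 came from ES-EP input library 1 and 30 from library 2. Without library 2, this window and the window at 3.75 kb were occupied in ES-EP too. Without MEL preparation B neither was occupied in MEL cells (ratios 2.4 and 3.75), and the window at 3.75 kb was also lost without A (3.06), so that the difference in calls between the cell types rests on single libraries or preparations. Input over the whole Slc11a2 locus was 1.62 times as high in MEL cells as in ES-EP in RPM, and over chromosome 15 it was 1.33 times as high relative to the median autosome.

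Slc25a37, the mitochondrial importer, had its main site upstream of the gene and not at its start. The window 3.09 kb upstream (chr14:69906001-69906500) held 11, 24, 12 and 18 reads in MEL libraries A1, A2, B1 and B2, against 2 in input. In ES-EP it held 15, 23, 6 and 14 reads, against 3 in the inputs. All 8 libraries were above their input by depth, and the site was occupied in both cell types. ChIP exceeded input 11-fold in MEL cells (2.92 to 92.4) and 10.8-fold in ES-EP (3.52 to 54.0), wide intervals that the few input reads set. The log2 difference between the cell types was 0.31 (SE 0.65, 95% interval −0.97 to 1.58). No gene is annotated under this site, and no GAGGAAGT lies within 250 bp of its highest point. The nearest is centered 742 bp away.

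The next window of the same site, 3.59 kb upstream, was called in ES-EP (14 and 11 reads, 3 in input) and not in MEL cells (8 and 10 reads, 4 in input). ES-EP had a further called window at 17.4 kb, in an intron, with 10 and 11 reads against 4 in input, where MEL cells held 2 and 5 against 4. Its highest point lay at the edge of the window, 17.7 kb from the start. Centered on that point, 500 bp held 11 and 13 ES-EP reads against 2 in input, and 7 and 7 MEL reads against 3. Both of these ES-EP calls were lost without preparation A, and the intronic one without B as well. The start site of Slc25a37 was called in neither cell type. In MEL cells preparation A held 8 reads (exact Poisson p = 0.0591 against 4.13 expected) and preparation B 22 (p = 2.26e-08 against 5.06 expected), so that the requirement on each preparation failed through A. In ES-EP the start held 38 and 18 reads against 23 in input, a ratio of 1.36. Without MEL preparation A the start was called in MEL cells (4.35), and without ES-EP preparation B it was called in ES-EP (1.97). With both preparations kept, MEL cells gained the call with 1000 bp around the start and with 1 read per position and strand. With the background from 10 kb and the genome mean, the start was called in both cell types.

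Fth1, the ferritin heavy chain, was occupied at its start in MEL cells. The start-site window (chr19:10056943-10057442) held 6, 7, 11 and 23 reads in libraries A1, A2, B1 and B2 against 5 in input, 3.17-fold over input (1.27 to 10.2). The call was lost without preparation B (ratio 1.95), with 1000 bp around the start (2.4), and with an adjusted p required in each preparation. The tiled window over nearly the same bases (chr19:10057001-10057500) held 14 and 35 MEL reads in A and B against 3 in input, a ratio to expected of 5.51 (Poisson adjusted p = 1.12e-17), and stayed occupied in MEL cells under each of the settings run on it, with a ratio of 3.5 without B. In ES-EP it held 57 and 45 reads against 38 and was not called (1.5), but without preparation B it was called there (1.79). In the start-site window ES-EP held more ChIP reads, 16, 38, 8 and 33, but also 38 in input, and the ratio was 1.40 (0.951 to 2.10), with an exact Poisson p = 0.223 in preparation B. ES-EP input library 2 gave 32 of these 38 reads. Without it the Fth1 start was called in ES-EP as well, as it was without preparation B. With 1000 bp around the start, Fth1 was called in ES-EP and not in MEL cells. On summed reads alone, and with the background from 10 kb and the genome mean, it was called in both. In the tiled window 558 bp from the start, where input was low, both cell types were occupied, with 8 and 13 reads in MEL cells (2 in input) and 29 and 19 in ES-EP (6 in input), ratios to expected of 3.37 and 3.63. These calls were lost without MEL preparation B (2.86) and ES-EP preparation A (2.71). A window 4.44 kb upstream was called in ES-EP (11 and 10 reads, none in input) and missed the threshold in MEL cells (6 and 9 reads, 1 in input, adjusted p = 0.128). It was lost in ES-EP without A or without B. Ferritin genes have processed copies elsewhere in the genome and only uniquely aligned reads were kept. By exact match, 98.6% of the 27-base words of the start window occur once. Alignments allowed up to 2 mismatches, which exact words do not cover, and whether reads were lost to such copies was not tested.

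Slc40a1, the iron exporter, had no occupied window among 75 in either cell type. Its start-site window held 2, 0, 9 and 12 reads in MEL libraries A1, A2, B1 and B2 against 2 in input. The signal lay wholly in preparation B, which had an exact Poisson p = 5.46e-11, while preparation A had p = 0.745. In ES-EP the window held 15 and 6 reads against 8 in input, and here preparation A alone had p below 0.05 (0.00396). Without MEL preparation A the start would be called in MEL cells, and without ES-EP preparation B it would be called in ES-EP. With both preparations kept, the start and a tiled window of the gene were called in MEL cells on summed reads alone. The start was called in ES-EP with the background from 10 kb and the genome mean.

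With both preparations summed, the iron regulatory protein genes had the highest ratios of ChIP to expected reads in MEL cells. These were 11.6 in the upstream window of Aco1 and 11.1 in the Ireb2 window 189 bp from its start. In preparation A alone they were 9.18 and 4.51, below the 11.2 of the Slc25a37 window 3.09 kb upstream. In preparation B alone they were 13.6 and 16.5. At Ireb2 the start-site window (chr9:54711312-54711811) held 4, 5, 16 and 25 reads in MEL libraries A1, A2, B1 and B2 against 2 in input. In ES-EP it held 21, 44, 4 and 23 reads against 10 in input. The preparations differed by a wide margin in both cell types, with B at 5.87 and A at 1.58 RPM in MEL cells, and A at 10.3 and B at 3.81 in ES-EP. ChIP exceeded input 8.43-fold in MEL cells (2.22 to 71.5) and 5.15-fold in ES-EP (2.68 to 11.1), with Poisson adjusted p of 1.18e-27 and 9.52e-34. The highest point of the reads fell 7 bp into the first exon, at the run of Ets cores printed above. A second Ireb2 window, 28.7 kb into an intron, was called in MEL cells on 6 and 7 reads with none in input, whereas ES-EP held 7 and 3 with 7 in input. It was not called with either MEL preparation left out.

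Aco1 was occupied upstream and not at its annotated first start. In the window 8.36 kb upstream (chr4:40081501-40082000) the MEL libraries A1, A2, B1 and B2 held 3, 8, 9 and 11 reads and input none. The ES-EP libraries held 10, 20, 2 and 20 reads and the inputs 1. Both preparations of both cell types were far above the local expectation, with a ratio of 11.6 in each cell type. With no input read in MEL cells, ChIP was at least 3.49-fold higher than input there, setting input at 3 reads per window, and in ES-EP the ratio to 1 input read was 29.1 (5.00 to 1170). Centered on the highest point of the reads, 500 bp held 15 and 28 MEL reads in A and B against 42 and 25 ES-EP reads, with no input read in either cell type. This is the only one of the 7 sites called in both cell types that has GAGGAAGT within 250 bp of its highest point. The next window, 7.86 kb upstream, was called in MEL cells alone, with 6 and 9 reads and none in input, where ES-EP held 12 and 6 with 5 in input. It was lost without MEL preparation B (ratio 3.92), and with unshifted reads it was called in ES-EP (5.71). At the Aco1 start the reads were few, 3 and 6 for MEL cells, 7 and 5 for ES-EP, and no call was made. The window 637 bp into the gene was called in ES-EP (ratio to expected 2.11) and not in MEL cells (3.04), where preparation A had 4 reads and an exact Poisson p = 0.278. Without A it was called in MEL cells (4.29), and without either ES-EP preparation it was not called in ES-EP (1.76 without A and 2.52 without B).

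**Figure D3:**
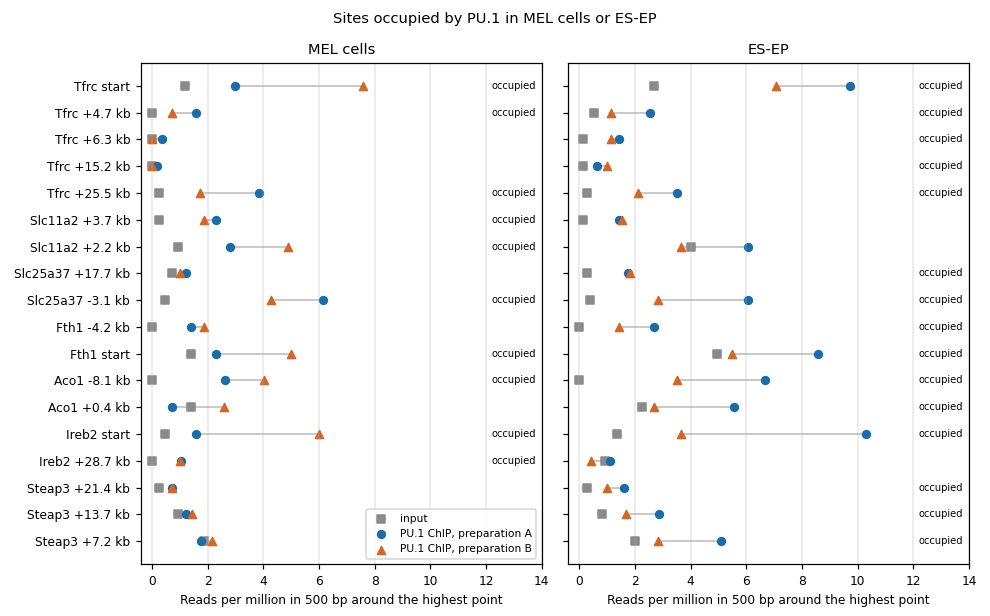
RPM in 500 bp around the highest point of each of the 18 sites, for preparations A (circles) and B (triangles) and for input (squares); sites with an occupied window are marked. At the sites upstream of Slc25a37 and Aco1 the preparations lie between 2.63 and 6.68 RPM with input at or below 0.467, and at the starts of Tfrc, Fth1 and Ireb2 preparations A and B of MEL cells lie at 2.98 and 7.59, 2.28 and 5.01, and 1.58 and 6.01 RPM.

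Whether depth-scaled PU.1 ChIP reads differed between MEL cells and ES-EP was tested with limma on the 2 preparations of each cell type. Input was not part of this fit. Of the 47 windows of the 8 genes with at least 20 ChIP reads none passed an adjusted p below 0.05, where 0.241% of all 65011 such windows did. At an unadjusted p below 0.05 there was 1 of the 47, the tiled window that holds the start of Slc25a37, and 4202 of the 65011. The log2 difference there was −1.31 (MEL minus ES-EP, limma adjusted p = 0.76). In the window centered on the same start it was −0.88 (limma unadjusted p = 0.227). The median difference over the 47 windows was −0.26, beside −0.0937 over all windows tested. With a preparation left out it was −0.29 without MEL A and −0.79 without MEL B, −0.11 without ES-EP A and −0.96 without ES-EP B, where all windows tested gave 0.0555, −0.605, 0.121 and −0.421. At start sites 0 of the 8 genes passed, and so did 0.0% of all 22342 start sites by the same fit, of which 1283 had an unadjusted p below 0.05. With start sites of fewer than 20 reads left out, 6 of 10808 passed, or 0.0555%, none of them among these genes. The widths of the intervals limit what this says. For the start of Ireb2 the log2 difference was −1.05 (SE 0.79, 95% interval −2.77 to 0.67), for Fth1 −1.08 (−2.58 to 0.43) and for Tfrc −0.80 (−2.36 to 0.76). Neither equal ChIP levels nor a more than 2-fold lower ChIP level in MEL cells lies outside these intervals. Input at the 8 start sites was 4.91 RPM in MEL cells and 14.2 in ES-EP. Set against input, ChIP at these starts was higher in MEL cells, with overlapping intervals: 8.43 against 5.15 for Ireb2, 3.17 against 1.40 for Fth1 and 4.05 against 2.85 for Tfrc. At the Aco1 start it was lower, 3.04 against 6.72, with 1 input read in each cell type. The scaling matters at start sites: with median-ratio size factors in place of total reads the median of all start sites moved from −0.219 to 0.148, and that of the 8 genes from −0.56 to −0.20. Leaving out a preparation moved the median of the 8 genes as well, to −0.08 without MEL A and −1.41 without MEL B, and to −0.28 and −1.04 without ES-EP A and B, while that of all start sites went to −0.0262, −0.522, −0.0895 and −0.382. Such fits leave 1 preparation in a cell type, which then has no spread of its own, so only the differences are given.

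**Figure D4:**
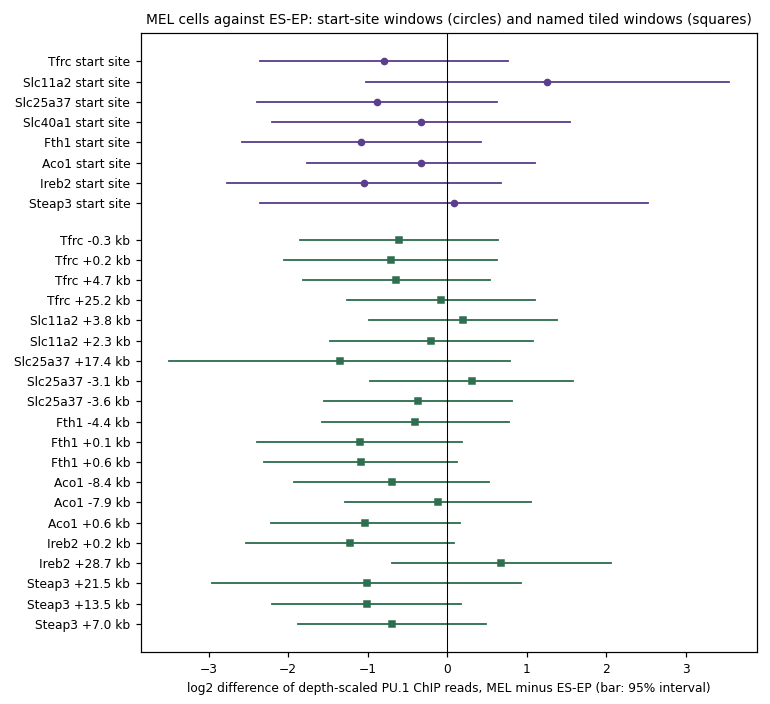
Log2 differences of depth-scaled PU.1 ChIP reads, MEL minus ES-EP, with 95% intervals from limma, for the start-site window of each gene (circles) and up to 4 occupied tiled windows per gene (squares). Every interval includes 0, from −1.35 at the intronic window of Slc25a37 to 1.26 at the start of Slc11a2, which held 0 to 2 reads per preparation.

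In MEL cells the preparations differed at the start sites more than away from them. Over the 24 windows of these genes with at least 20 ChIP reads that lay more than 2 kb from a coding start, the depth-scaled level of preparation B was 0.902 times that of A, whereas at their start sites it was 2.73 times. Over all 36773 such windows of the genome the ratio was 1.19, beside 1.70 over all start sites. In ES-EP the ratio was nearly alike, 0.621 away from starts and 0.554 at starts. The calls at Slc25a37 −3.1 kb, Aco1 −8.1 kb and the starts of Tfrc and Ireb2 were made with either preparation of either cell type left out, and under the other settings run on these windows. Windows moved by 250 bp were compared by counts alone.

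The words searched on both strands were GAGGAAGT, GGAA and AGATAA. GAGGAAGT was present in 3 of the 23 occupied windows, or 13.0%, namely Tfrc at 245 bp, Slc25a37 at −3.59 kb and Steap3 at 21.5 kb, beside 3.18% of all 942 windows of the genes and 3.01% of the genome's windows. Of the words printed above, the one at Aco1 spans the border of the windows at −8.36 and −7.86 kb and the one in the Slc25a37 intron lies outside the occupied window, so neither is in this count. Among all occupied windows it was in 22.4% in MEL cells and 27.5% in ES-EP. GGAA was in 23 of 23, but also in 99.3% of all windows, so that in 500 bp it separates nothing. AGATAA was in 3 of 23, or 13.0%, beside 25.7% of the 942 windows and 30% of all windows, and 21.0% and 26.2% of all occupied windows in MEL cells and ES-EP. A match is a stretch of letters and not a measured contact, and overlaps between the words (GGAA lies within GAGGAAGT) were kept.

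Of 39 other iron genes, from transferrin and hepcidin to heme transporters, 12 start sites were occupied in MEL cells, or 30.8%, and 6 in ES-EP, or 15.4%, with 5 in both. These shares stand beside 19.4% and 12.5% of all start sites. In MEL cells the 4 highest ratios of ChIP to expected reads were those of Snx3, a sorting nexin that recycles the transferrin receptor (8.66), the metal importer Slc39a8 (6.75), Ncoa4, the receptor that carries ferritin to autophagy (5.85), and the iron chaperone Pcbp2 (5.06). In ES-EP they were Ncoa4 (8.06), Snx3 (4.05), Bmp6, a ligand that induces hepcidin (3.12), and the exocyst subunit Exoc6 (2.67). Snx3 held 23 and 54 MEL reads in A and B against 3 in input, and 93 and 59 ES-EP reads against 21. Ncoa4 held 17 and 35 reads against 3, and 38 and 34 against 5. None of the 39 differed between the cell types at an adjusted p below 0.05 (limma).

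**Figure D5:**
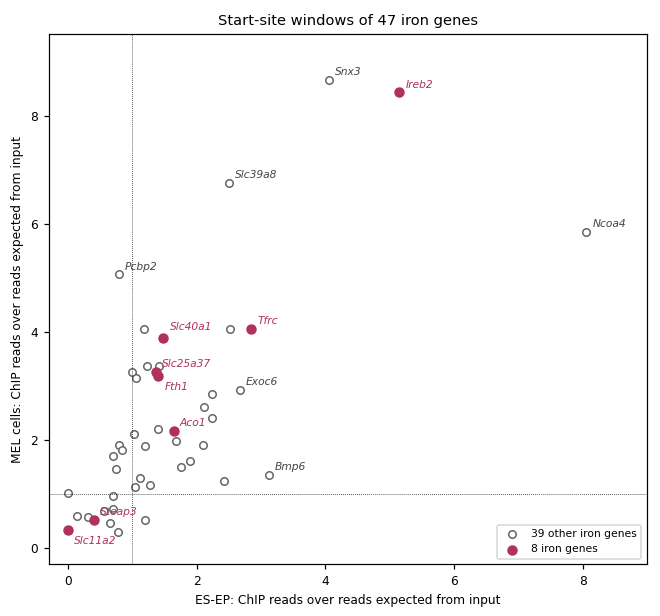
Ratio of PU.1 ChIP reads to reads expected from input in start-site windows, ES-EP on the horizontal axis and MEL cells on the vertical axis, for the 8 iron genes (filled) and 39 other iron genes (open); dotted lines mark a ratio of 1. Ireb2 (8.43 and 5.15) and Tfrc (4.05 and 2.85) are high in both cell types, and Slc11a2 and Steap3 lie below 1 in both.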

How the data were processed

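PU.1 ChIP and input DNA were sequenced on an Illumina GAII. The authors aligned reads with ELAND to mm9 and kept unique alignments with at most 2 mismatches. The deposited files hold 1 alignment per line with its position and strand, of unit other, and no score or count was used from them. Starts were checked against the mm9 sequence, where 99.95% to 100% of 2000 reads per library matched. The letter in a label was taken as the chromatin preparation, and libraries of a preparation were summed. Read 5′ ends were shifted by 70 bp (MEL) or 65 bp (ES-EP) and counted in 500 bp windows. For the expected reads, input was scaled to ChIP depth and its highest estimate taken, out of the window itself, the surrounding 5 kb, the surrounding 10 kb and the whole genome. Occupied windows needed a Benjamini-Hochberg adjusted Poisson p below 0.05 and p below 0.05 in each preparation. Cell types were compared with limma 3.58.1 (voom, R 4.3.3, two-sided) over 2 preparations each, on total reads, for windows with at least 20 ChIP reads and for all start sites. Start sites are the most upstream coding start in GENCODE on NCBIM37 (mm9). Of the 39 other iron genes, 3 were matched by an older symbol, and one more that was listed is not reported here. Repeated positions, 1.59% to 9% of reads, were kept, and intervals cover counting error only. Members and lists were chosen with earlier results of these data known. Named were all 8 genes, at most 4 occupied windows per gene (those with most depth-scaled ChIP reads), and the 4 highest ratios per cell type of the other genes. The scripts that make the calls were tested on simulated data. For the Poisson test these had a known background and the same enrichment in both preparations. They do not cover preparations that differ as those here do.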

Additional observations from a re-analysis of the deposited data

Results flagged for a closer look

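In 62 groups of 4 libraries (the start sites and the occupied windows of the 8 genes, in each cell type), 2 had a library far from the other 3. The cutoff is one that chance passes in about 1 in 20 groups of normal values. Its rate for low read counts was not computed. In the start-site window of Steap3, MEL PU.1 library B2 held 0.47 RPM (reads per 1000000) and the other 3 libraries held 0. In the Tfrc window 15.2 kb from the start, which was called in ES-EP, MEL PU.1 library A2 held 0.274 RPM and the other 3 held 0. Both values are 1 or 2 reads.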

How the results depend on the processing

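Counts of occupied windows among the 942 depended on the setting. With an adjusted p required in each preparation, 6 windows were called in MEL cells (14 in the reported setting) and 6 in ES-EP (17). With the local background taken from 10 kb and the genome mean alone, ES-EP had 27. Leaving out a preparation gave 8 to 13 windows in MEL cells, the lowest without B, and 6 to 17 in ES-EP, the lowest without A. Leaving out input library 1 or 2, a choice made after seeing the data, gave 13 and 22 in ES-EP, both within 1.5 times. Of the start sites, MEL cells had 5 on summed reads alone and 2 to 5 with a preparation left out, against 3. ES-EP had 5 with the 10 kb background and 2 to 5 with a preparation left out, against 2, and 2 to 3 with an input library left out. All other settings, namely moved or wider windows, 1 read per position and strand, unshifted reads, a threshold of 0.01 and every coding start, kept each count within 1.5 times. The genes behind a count could change: with 1000 bp around the start, the MEL start sites called were those of Tfrc, Slc25a37 and Ireb2. Of the named sites, those not called under every setting are the Tfrc windows at 4.75 and 25.2 kb, the window centered on the Fth1 start in MEL cells (the tiled window at 0.058 kb kept its call) and the Fth1 windows at −4.44 and 0.558 kb, the Aco1 windows at −7.86 and 0.637 kb, the Slc25a37 windows at −3.59 and 17.4 kb, the Ireb2 window at 28.7 kb, and all windows of Slc11a2 and Steap3. The cause was not tested.

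No member window or start site differed between the cell types under any of the settings that kept both preparations of each cell type. In these, 0 passed each time. Over all windows of the genome 157 passed in the reported fit, 10 with the replicate block and 1743 with limma on log2 CPM plus 0.5. Fits with a preparation left out keep 1 preparation in a cell type, so counts passing are not given for them. With the replicate block (the letter as a block) 0 member windows and 0 member start sites passed, and at start sites 3 of 22342 passed. The letters did not deviate together between cell types (r = 0.0425 across 65011 windows), so they were treated as names only. The sign of the log2 difference turned for values near 0. It became 0.14 for the Tfrc window at 25.2 kb with 1 read per position and strand, 0.02 for the Aco1 window at −7.86 kb with each library as a sample, 0.32 and 0.01 for the Slc40a1 start with median-ratio size factors and with at least 40 ChIP reads, and −0.30 for the Steap3 start with each library as a sample. With each preparation left out in turn it ranged from −0.65 to 0.47 for the Aco1 window at −7.86 kb, −0.76 to 0.37 for the Slc11a2 window at 2.25 kb, −0.80 to 0.63 for the Tfrc window at 25.2 kb, −0.23 to 0.85 for the Slc25a37 window at −3.09 kb, −1.79 to 1.04 for the Slc40a1 start and −0.99 to 1.2 for the Steap3 start. For the Ireb2 window at 28.7 kb it was −0.12 without ES-EP preparation B, and with any other preparation left out the window fell below 20 reads. Input held on average 0.806 reads per 500 bp in MEL cells and 1.41 in ES-EP, so windows without a call were not shown to lack PU.1.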
